A study of Mus musculus with 4 samples.

Results

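Proliferating cells copy their genome in S phase with a set of proteins whose genes are switched on together, and 37 of these genes are described here in mouse macrophages loaded with fatty acids. The genes were chosen by symbol from the platform annotation, as the listed genes of DNA replication and S phase, across 4 arrays. Of the 37 listed genes, 35 had a probe set with a single gene symbol, out of 22180 such genes on the array, and these 35 are the measured genes below. Rfc4, a subunit of the clamp loader, and Ccne2, a cyclin E, were listed only on probe sets that also carried Eif4a2 and Ints8, so no value is given for them. All 35 measured genes had a mean log2 level at or above 2.44, the 40th percentile, which 13308 genes passed. Orc1, at a mean of 2.66, lay closest to that floor.

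The study compared bone marrow-derived macrophages of HilpdaΔMΦ mice (KO), which lack Hilpda in macrophages, with those of Hilpda flox/flox littermates (WT), 8 to 12 weeks old. HILPDA is a small lipid droplet protein that inhibits the triglyceride lipase ATGL. The 4 groups were KO after 24 h, WT after 24 h, KO after 12 h and WT after 12 h, all of them with 600 µM palmitate and oleate (1:2) bound to albumin, and all differentiated in medium holding 15% L929-conditioned medium, a source of the growth factor CSF1. Each group was 1 array made from the pooled RNA of 3 samples, so no group had a replicate, and the number of arrays limits the precision of every value. The sources used here do not name the promoter that drives the deletion, and every group received the fatty acids.

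Before S phase, the origin recognition complex, CDC6 and CDT1 load the ring of MCM2 to MCM7 onto replication origins, which is called licensing. MCM10, CDC45 and the GINS complex then turn the ring into a working helicase, and primase, polymerases, the sliding clamp PCNA and its loader copy both strands. Ribonucleotide reductase, thymidylate synthase and thymidine kinase supply the building blocks, CAF-1 and UHRF1 rebuild chromatin and its methylation, and E2F transcription factors and cyclin E start the programme. Macrophages grown with CSF1 can go on dividing in culture, and these transcripts are commonly read as signs of that.

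Promoters are shown because the words known to bind E2F factors were more frequent in replication genes than in mitosis genes, the list set against them over time below. RefSeq promoter windows of 300 bases in build GRCm38.p6, running from 250 bases before the gene start to 50 after it, matched 31 of the 37 listed genes, with 36 windows. The E2F words searched, on both strands, were TTTCCCGC, TTTGGCGC, TTTGCCGC and TTTCGCGC, and matches on opposite strands can overlap. At least 1 of them stood in 13 of the 36 windows (36.1%), against 2.26% of all 32851 windows and 1 of 23 windows (4.35%) of mitosis genes. The word TTTGAA, the CHR element of mitotic promoters, stood in 4 of the 36 windows (11.1%), against 16 of 23 windows (69.6%) of mitosis genes and 17.9% of all windows. CCAAT boxes were found in 58.3% of the windows of replication genes, 78.3% of those of mitosis genes and 37.4% of all. A match is only a run of letters, and no binding was measured. The first 4 lines are windows of replication genes with the E2F words in capitals, and the last 2, given for contrast, are windows of the mitosis genes Ccnb2 and Plk1 with TTTGAA in capitals.
Mcm5: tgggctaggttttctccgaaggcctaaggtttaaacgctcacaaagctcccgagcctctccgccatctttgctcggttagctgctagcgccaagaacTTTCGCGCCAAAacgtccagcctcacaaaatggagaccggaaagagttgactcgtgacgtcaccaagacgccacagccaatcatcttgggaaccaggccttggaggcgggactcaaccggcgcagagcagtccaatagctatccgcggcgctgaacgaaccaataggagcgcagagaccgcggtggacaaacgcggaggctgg
Mcm6: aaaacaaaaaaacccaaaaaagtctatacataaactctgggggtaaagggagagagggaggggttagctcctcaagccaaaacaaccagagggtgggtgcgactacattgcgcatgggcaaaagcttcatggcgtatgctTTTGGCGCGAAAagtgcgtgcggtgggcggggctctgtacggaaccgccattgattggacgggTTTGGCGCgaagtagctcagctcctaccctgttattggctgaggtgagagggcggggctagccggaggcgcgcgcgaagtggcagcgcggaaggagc
Gins3: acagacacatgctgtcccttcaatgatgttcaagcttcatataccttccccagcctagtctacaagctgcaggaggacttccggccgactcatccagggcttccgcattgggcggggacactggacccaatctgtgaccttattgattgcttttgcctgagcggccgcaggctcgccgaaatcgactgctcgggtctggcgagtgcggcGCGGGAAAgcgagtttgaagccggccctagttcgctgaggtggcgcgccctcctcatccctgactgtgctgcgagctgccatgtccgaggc
Cdt1: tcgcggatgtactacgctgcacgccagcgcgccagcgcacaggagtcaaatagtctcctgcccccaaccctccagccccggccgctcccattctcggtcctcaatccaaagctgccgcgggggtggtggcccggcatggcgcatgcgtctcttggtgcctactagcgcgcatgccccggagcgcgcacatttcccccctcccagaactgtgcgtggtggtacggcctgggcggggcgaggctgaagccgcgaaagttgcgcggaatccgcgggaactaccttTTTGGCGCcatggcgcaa
Ccnb2: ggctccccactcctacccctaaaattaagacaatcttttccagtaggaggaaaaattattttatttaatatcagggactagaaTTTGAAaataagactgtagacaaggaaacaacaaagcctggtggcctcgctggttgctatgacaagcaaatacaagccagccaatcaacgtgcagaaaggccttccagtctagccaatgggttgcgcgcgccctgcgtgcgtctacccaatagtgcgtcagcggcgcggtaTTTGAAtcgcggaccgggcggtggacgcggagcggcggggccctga
Plk1: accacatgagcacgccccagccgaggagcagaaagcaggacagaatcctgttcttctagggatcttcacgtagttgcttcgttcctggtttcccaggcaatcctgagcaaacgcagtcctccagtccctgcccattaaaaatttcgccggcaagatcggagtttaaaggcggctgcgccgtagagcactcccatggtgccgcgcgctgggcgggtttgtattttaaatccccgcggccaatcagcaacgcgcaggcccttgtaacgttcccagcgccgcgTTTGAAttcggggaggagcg
All are written 5′ to 3′ on the strand of the gene. They lie at chr8:75109259-75109558 (plus strand, Mcm5), chr1:128359656-128359955 (minus, Mcm6), chr8:95633309-95633608 (plus, Gins3), chr8:122567765-122568064 (plus, Cdt1), chr9:70421505-70421804 (minus, Ccnb2) and chr7:122159185-122159484 (plus, Plk1). In Mcm5 and in Mcm6 a word on one strand overlaps a word on the other, beginning 153 and 110 bases before the start, and Mcm6 holds a further word 47 bases before it. The match of Gins3 begins 41 bases before the start, and that of Cdt1 lies 32 bases after it.

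**Figure D1:**
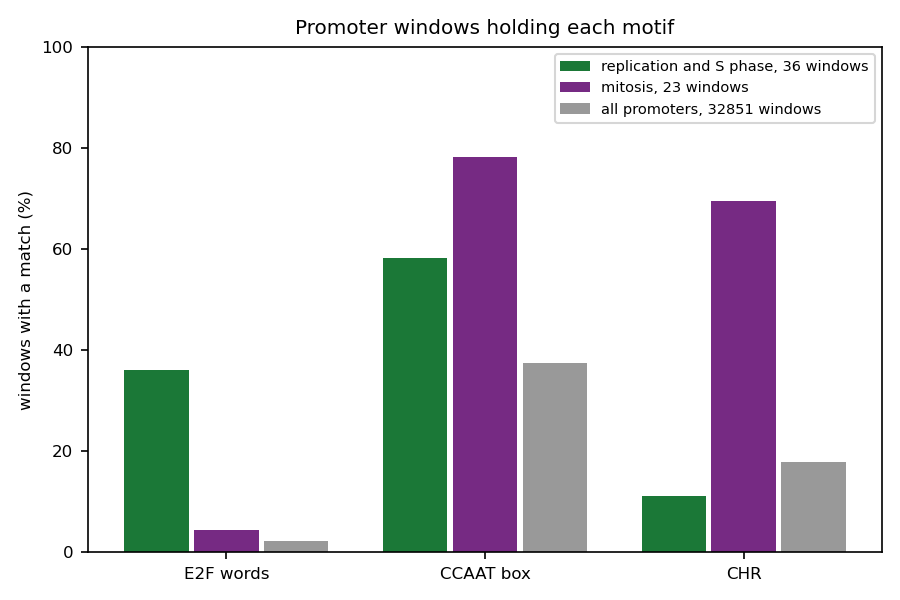
Bars give the percent of promoter windows that hold a match to the E2F words, the CCAAT box or the CHR element, for the replication and S phase genes, the mitosis genes and all windows of the table. E2F words stand in 36.1% of the replication windows and 4.35% of the mitosis windows, and the CHR element in 11.1% and 69.6%.

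The arrays correlated pairwise at 0.984 to 0.988 over all 41345 probe sets. Genes that macrophages are not known to use give a measure of noise at low signal: over 1405 genes of odorant, vomeronasal and trace amine receptors, the SD of the log2 difference was 0.276 to 0.30 in the 4 pairwise comparisons. All 13 measured macrophage markers were past the level filter, among them Adgre1, Cd68 and Lyz2. None of the 11 neutrophil precursor markers was, and 3 of 8 lymphoid, 3 of 8 stem and erythroid and 4 of 7 dendritic markers were. Stromal markers were present, 10 of 12 past the filter, with Lum and Thy1 below it. Their summed signal, as log2, was 10.17 in KO and 10.93 in WT at 24 h, and 9.56 in KO and 10.03 in WT at 12 h. All 10 were lower in KO at both times, with medians of -0.83 at 24 h and -0.51 at 12 h. Hilpda was at a log2 level of 5.27 in KO and 5.47 in WT at 24 h, and at 5.41 in KO and 5.93 in WT at 12 h. The labels do not say whether its probe set lies in the deleted part.

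The replication genes varied between the 4 arrays about as much as the typical gene. Their range over the arrays, highest minus lowest log2 level, had a median of 0.33 over the 35 genes and of 0.33 over all 13308 genes. For 4 of the 35 (11.4%) the range reached 1.5-fold, against 19.4% of all genes. These were Chaf1a at 1.13, Gins2 at 0.94, Tk1 at 0.66 and Gins3 at 0.59. The steadiest was E2f1, an activator of the programme, with log2 levels of 6.45 in KO and 6.44 in WT at 24 h and 6.37 in KO and 6.40 in WT at 12 h. The WT 24 h array was the highest of the 4 for 16 of the 35 genes (45.7%, against 28.6% of all genes), and the KO 12 h array was the lowest for 17 (48.6%, against 23.0%).

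**Figure D2:**
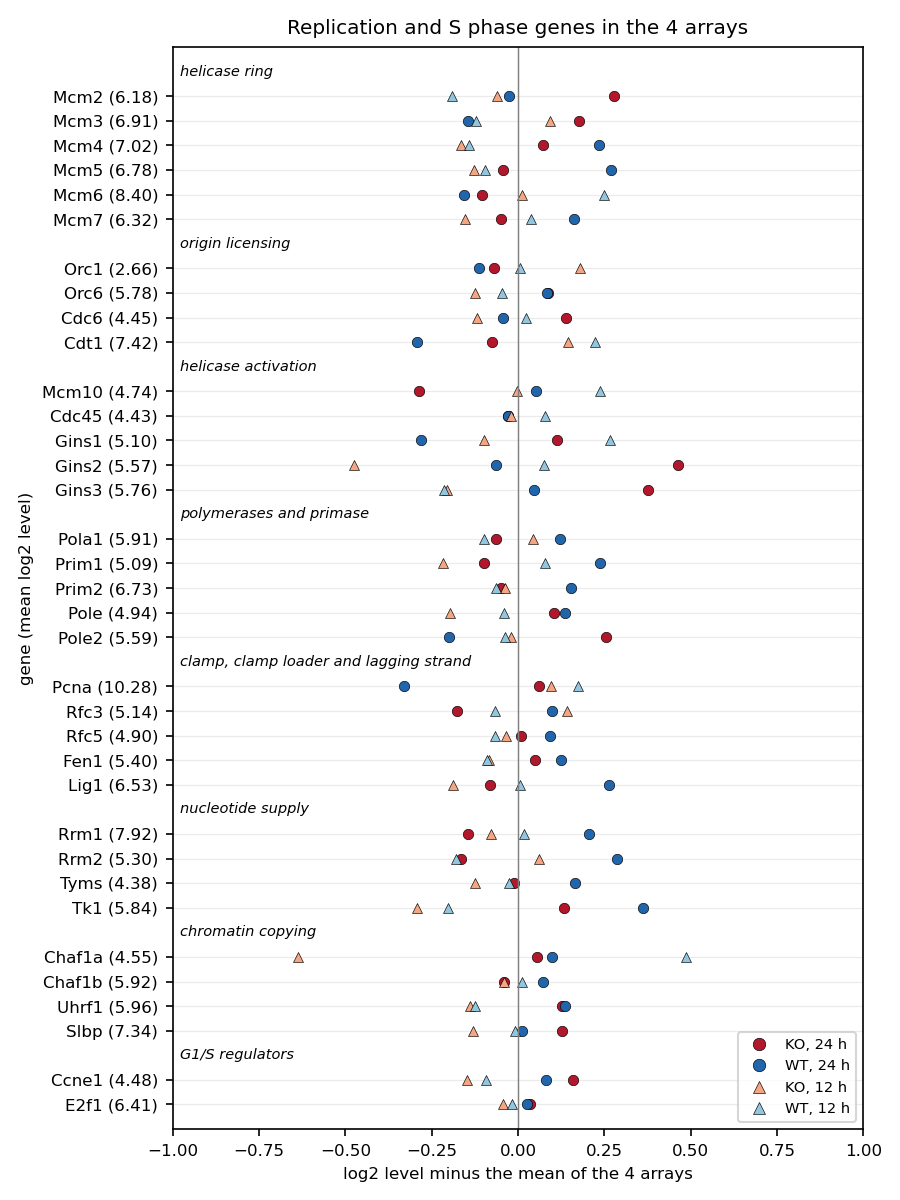
Each row is 1 of the 35 measured genes, grouped by role, with its mean log2 level in brackets, and each point is 1 array, placed at its log2 level minus the gene's mean over the 4 arrays. Chaf1a, with a range of 1.13, and Gins2, with 0.94, spread most.

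Between the genotypes at 24 h, no replication gene differed by 1.5-fold. Of the 35 genes, 0 passed that size, where 6.49% of all 13308 genes did (2.98% higher and 3.51% lower in KO). The median difference, KO minus WT on the log2 scale, was -0.03, against 0.01 over all genes, with 15 genes above 0 and 20 below, and values ran from -0.45 to 0.53. At 12 h the median was -0.08, against 0.00 over all genes, with 11 above 0 and 24 below. There 1 of the 35 genes, Chaf1a, was past 1.5-fold and lower in KO, where 1.4% of all genes were lower by that much, 1.5% were higher and 2.9% differed in either direction. In bulk RNA, a change in the number of dividing cells and a change in transcript per cell, in either direction, cannot be told apart. With 1 array per group these differences were not tested.

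The 6 genes of the helicase ring did not share a sign. Mcm2 was at log2 levels of 6.46 in KO and 6.15 in WT at 24 h, and 6.12 in KO and 5.99 in WT at 12 h. Mcm3 was at 7.09 in KO and 6.77 in WT at 24 h, and 7.01 in KO and 6.79 in WT at 12 h. Both were thus higher in KO in each pair of arrays, by 0.31 and 0.32 at 24 h and by 0.13 and 0.21 at 12 h. Mcm4, Mcm5 and Mcm7 lay on the other side at both times, with differences of -0.16, -0.31 and -0.21 at 24 h and -0.02, -0.03 and -0.19 at 12 h. Mcm6 was at 8.29 in KO and 8.24 in WT at 24 h, and 8.41 in KO and 8.64 in WT at 12 h. The median of the 6 was -0.05 at 24 h and -0.03 at 12 h, with values of both signs at each time.

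Among the licensing factors, differences between genotypes were small. CDT1 brings the ring to the origin, and its gene was at 7.34 in KO and 7.13 in WT at 24 h, and 7.56 in KO and 7.64 in WT at 12 h. Cdc6, an ATPase that works with it, was at 4.59 in KO and 4.41 in WT at 24 h, and 4.33 in KO and 4.48 in WT at 12 h. The origin recognition subunits Orc1 and Orc6 differed by 0.04 and 0.00 at 24 h and by 0.17 and -0.08 at 12 h. All 4 values at 24 h were above 0, none beyond the SD of the receptor genes. That of Orc6 was above 0 by only 0.004, and fell to -0.03 after median centring or loess and to -0.04 after quantile normalization.

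The GINS genes, whose proteins join CDC45 and the ring in the active helicase, differed in sign between the times for Gins1 and Gins2. Gins2 was at 6.03 in KO and 5.50 in WT at 24 h, but at 5.09 in KO and 5.64 in WT at 12 h, so KO was 1.44-fold higher at the later time and 1.47-fold lower at the earlier one. Gins1 shared these signs, but not the order of all 4 arrays. At 24 h it was at 5.21 in KO and 4.81 in WT. At 12 h it was at 4.999 in KO and 5.362 in WT. Gins3 was at 6.14 in KO and 5.81 in WT at 24 h, and level at 12 h with 5.56 in KO and 5.55 in WT. For all 3 the KO 24 h array lay above the WT 24 h array. Cdc45 was flat, with levels from 4.40 to 4.51, and Mcm10, which helps the ring to open, was lower in KO at both times, by 0.34 and 0.24. Gins4, the remaining subunit and not on the list, was at -0.12 at 24 h and 0.02 at 12 h.

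The polymerase and primase genes pointed mostly below 0 at 24 h. Prim1, the catalytic primase subunit, was at 4.99 in KO and 5.33 in WT at 24 h, and 4.87 in KO and 5.17 in WT at 12 h, differences of -0.34 and -0.30. Pole2, the second subunit of the leading strand polymerase, stood on the other side at 24 h with 5.84 in KO and 5.39 in WT, and was level at 12 h with 5.57 in KO and 5.55 in WT. Pole, Prim2 and Pola1, the large subunits of polymerase epsilon, primase and polymerase alpha, lay between -0.20 and -0.03 at 24 h. At 12 h the same genes lay between -0.16 and 0.14.

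PCNA, the clamp that holds polymerases on DNA, was at 10.34 in KO and 9.95 in WT at 24 h, and 10.38 in KO and 10.45 in WT at 12 h. The WT 24 h array thus stood below the other 3. Lig1, the ligase that joins Okazaki fragments, was at 6.45 in KO and 6.80 in WT at 24 h, and 6.34 in KO and 6.54 in WT at 12 h. Rfc3, a clamp loader subunit, was at -0.27 at 24 h and 0.21 at 12 h, while Rfc5, of the same loader, was at -0.08 and 0.03. Fen1, the flap nuclease, was at -0.08 and 0.01.

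The genes of nucleotide supply were the group with all members lower in KO at 24 h. Rrm2, the regulated subunit of ribonucleotide reductase, was at 5.14 in KO and 5.59 in WT at 24 h, and 5.36 in KO and 5.12 in WT at 12 h. Rrm1, its partner, was at 7.77 in KO and 8.13 in WT at 24 h, and 7.84 in KO and 7.94 in WT at 12 h. Tk1, thymidine kinase, was at -0.23 and Tyms, thymidylate synthase, at -0.18 at 24 h, and both at about -0.10 to -0.09 at 12 h. In all 4 the WT 24 h array was the highest. A further probe set listed with both Tyms and the pseudogene Tyms-ps was not used.

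Chaf1a, the large subunit of the histone chaperone CAF-1, gave the largest genotype difference of the 35 genes. It was at 4.60 in KO and 4.64 in WT at 24 h, and at 3.91 in KO and 5.03 in WT at 12 h. KO was 2.18-fold lower at 12 h, and 9 of 13308 genes lay as low or lower in that comparison. The KO 12 h array was the lowest of the 4 and the WT 12 h array the highest, while the arrays at 24 h lay level between them. Chaf1b, which encodes the next subunit of the same chaperone, was at -0.11 at 24 h and -0.05 at 12 h. Uhrf1, which guides DNA methylation behind the fork, differed by 0.01 at both times, below 0. Slbp, which binds histone messages, was at 0.12 and -0.12, and the cyclin gene Ccne1 at 0.08 and -0.06.

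**Figure D3:**
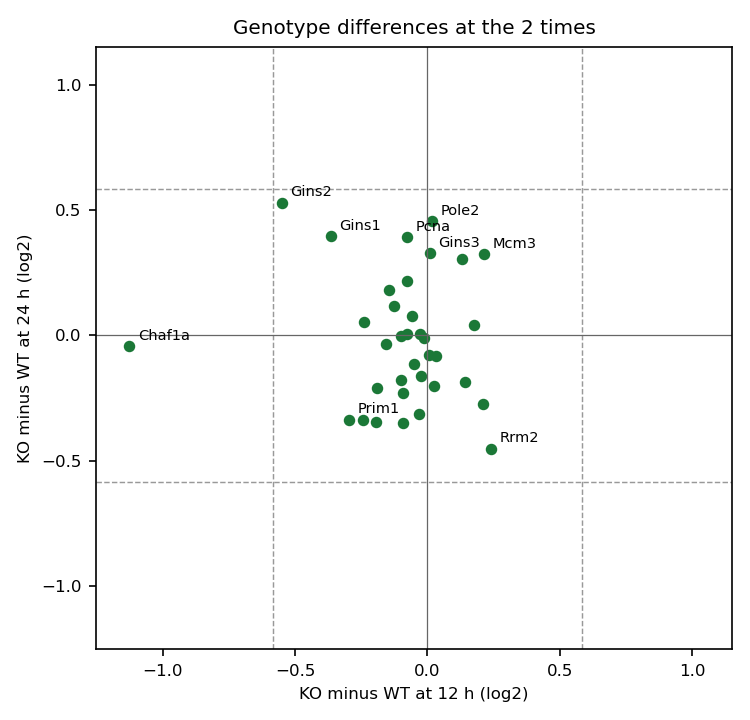
Each point is 1 of the 35 genes, with the KO minus WT difference in log2 at 12 h on the horizontal axis and at 24 h on the vertical axis, and dashed lines mark 1.5-fold. Chaf1a at 12 h is the single value past a line. Gins1 and Gins2 lie in the upper left corner, lower in KO at 12 h and higher at 24 h.

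The signs of the genotype difference at both times, which share no array, matched for 19 of the 35 genes (54.3%), close to the 53.4% of all genes. They were below 0 at both times for 14 genes (40%, against 26.0% of all genes) and above 0 at both for 5 (14.3%, against 27.5%). Subtracting the 12 h genotype difference from the 24 h one gave a median of 0.00 over the 35 genes and -0.00 over all genes. This value was past 1.5-fold for 4 of the 35, 3 above 0 and 1 below, where 10.1% of all genes were (4.7% above and 5.42% below). Chaf1a and Gins2 were both at 1.08, Gins1 was at 0.76 and Rrm2 at -0.69. On a second, dimmer probe set Rrm2 was at -0.28. These values rest on all 4 arrays and were not tested.

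Between the times, the median difference of the replication genes was slightly above 0 in both genotypes, with genes on both sides. The median of 24 h minus 12 h was 0.11 in KO and 0.16 in WT, against 0.00 and -0.01 over all genes. In KO 24 of the 35 genes were above 0 and 11 below, and in WT 23 were above and 12 below. With a rule of 1.3-fold the larger differences split otherwise, with 4 genes higher and 0 lower in KO, but 2 higher and 5 lower in WT. The share of the 35 genes past 1.3-fold was below that of all genes in KO, and slightly below it in WT. These splits were not tested. The summed signal of the 35 genes, as log2, was 11.92 at 24 h and 11.88 at 12 h in KO. In WT it was 11.83 at 24 h and 11.96 at 12 h, although the median difference was above 0. The sum weighs the brightest genes most. Pcna, the brightest of the 35, was at 9.95 at 24 h and 10.45 at 12 h in WT. The lower WT sum thus does not describe the list as a whole. For 18 genes (51.4%) the time difference was above 0 in both genotypes, against 29.3% of all genes, and for 6 (17.1%) it was below 0 in both, against 29.8%. In KO, 2 genes were higher by 1.5-fold, Gins2 at 0.94 and Chaf1a at 0.69, where 3.06% of all genes were higher and 6.31% differed in either direction. In WT 0 genes passed, where 8.72% of all genes did (4.71% higher). The median size of the difference, sign left out, was 0.21 in KO and 0.19 in WT, against 0.16 and 0.18 over all genes.

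Tk1 gave the clearest time difference that both genotypes shared. It was at 5.97 at 24 h and 5.55 at 12 h in KO, and at 6.20 at 24 h and 5.64 at 12 h in WT, differences of 0.43 and 0.57. Gins3 was higher at 24 h by 0.58 in KO and 0.26 in WT, Mcm4 by 0.24 and 0.38, and Uhrf1 by 0.26 in each. Some genes went the other way. Cdt1 was at 7.34 at 24 h and 7.56 at 12 h in KO, and at 7.13 at 24 h and 7.64 at 12 h in WT, differences of -0.22 and -0.52. Mcm6 was at -0.11 in KO and -0.40 in WT, and Pcna at -0.04 in KO and -0.50 in WT. Gins1, at 0.21 in KO and -0.55 in WT, had the lowest value in WT.

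Mitosis genes, by contrast, were lower at 24 h in both genotypes. Of 25 measured genes of that list, 24 had a time difference below 0 in KO and the same 24 in WT, with medians of -0.76 in KO and -0.52 in WT. By at least 1.5-fold, 14 were lower in KO and 10 in WT, of which 9 in both. Of all 13308 genes, 3.25% were lower by that much in KO and 4.01% in WT, and 149 genes in both. Of the 35 replication genes, 0 were lower by that much in either genotype, which for a list of this size is close to those shares. Plk1, a mitotic kinase, was at 5.89 at 24 h and 7.38 at 12 h in KO, and at 6.57 at 24 h and 7.47 at 12 h in WT. Ccnb2, a mitotic cyclin, was at 6.03 at 24 h and 7.48 at 12 h in KO, and at 6.22 at 24 h and 7.46 at 12 h in WT. Mybl2, a transcription factor gene, was the 1 gene of the list above 0, at 0.27 in KO and 0.05 in WT. The difference between the lists was not tested. Stromal markers were higher at 24 h, with medians of 0.58 in KO and 0.82 in WT, and their part in any of these differences was not tested.

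**Figure D4:**
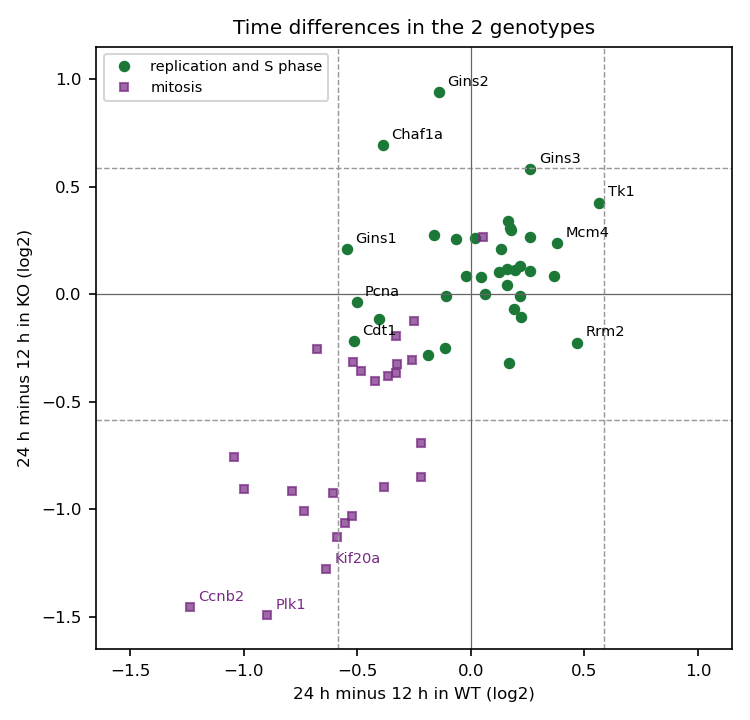
Each point is a gene, with the 24 h minus 12 h difference in log2 in WT on the horizontal axis and in KO on the vertical axis, and dashed lines mark 1.5-fold. The replication genes (circles) gather around and slightly above 0, with Gins2 at 0.94 in KO, while 24 of 25 mitosis genes (squares) lie below 0 on both axes.

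**Figure D5:**
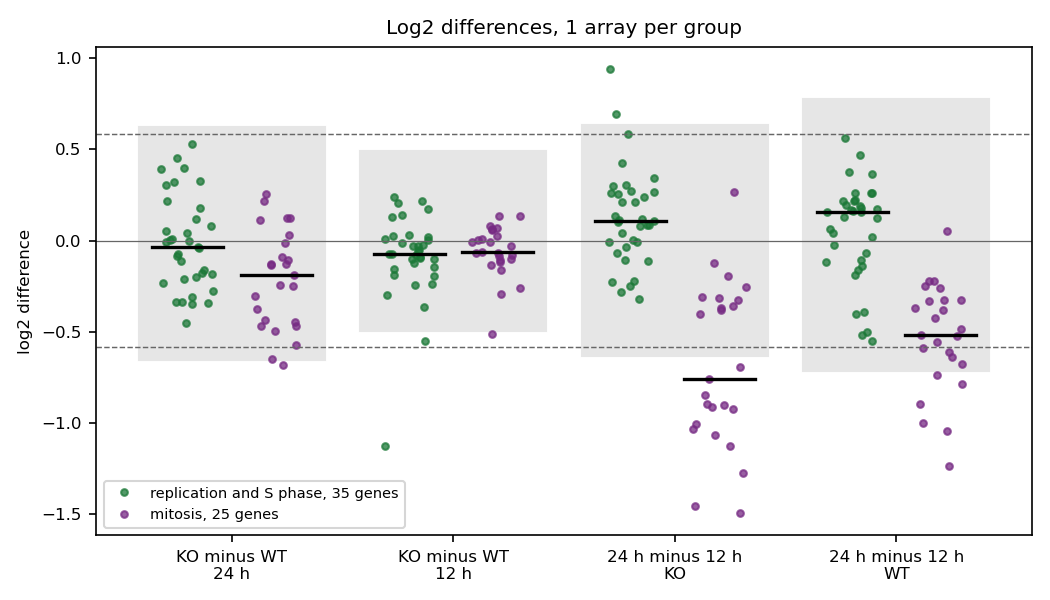
Points give the log2 differences of the 35 replication and 25 mitosis genes in the 4 comparisons, black bars their medians, grey boxes the central 95% of all 13308 genes and dashed lines 1.5-fold. The replication medians lie between -0.08 and 0.16, and the mitosis medians of the time comparisons at -0.76 in KO and -0.52 in WT.

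Other genes of the replication pathway, from a list that did not include the 35, had medians close to 0. Of 38 genes of origins, helicase, polymerases and fork protection, 0 were past 1.5-fold between the genotypes at either time. Of all genes, 6.49% were past that size at 24 h and 2.9% at 12 h. The median genotype differences of the 38 were -0.05 at 24 h and 0.06 at 12 h. Over time 2 of the 38 were lower by 1.5-fold in KO, against 3.25% of all genes. They were Dna2, a nuclease and helicase of Okazaki fragments, at -0.76, and Timeless, a fork protector, at -0.72. In WT 1 of the 38 was past that size, against 8.72% of all genes. It was Donson at 0.59, a gene named after its values were seen. Of 13 other nucleotide genes, 1 was past 1.5-fold between the genotypes at each time, lower in KO. At 24 h it was Rrm2b, the p53-induced subunit of ribonucleotide reductase, at -0.72, a gene named after its value was seen. At 12 h it was Nme1, a nucleoside diphosphate kinase, which was at 5.48 in KO and 4.93 in WT at 24 h, and 5.35 in KO and 6.17 in WT at 12 h. Its genotype difference was thus 0.55 at 24 h and -0.82 at 12 h. Median differences of this group were -0.10 at 24 h and -0.06 at 12 h. Of 11 other chromatin genes 0 were past 1.5-fold between the genotypes, and over time Tonsl, which handles new histones, was at 0.84 in KO and 0.10 in WT.

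Regulators upstream of S phase went both ways. In KO at 24 h, 2.98% of all genes were higher and 3.51% lower by 1.5-fold. Among 18 genes listed for S phase entry, 1 was higher and 1 lower by that much. Ccnd2, a D-type cyclin, was the lower one, at -0.64 at 24 h and -0.48 at 12 h, and it was higher at 24 h than at 12 h by 0.90 in KO and 1.06 in WT. E2f3 was the higher one, at 0.62 at 24 h and -0.01 at 12 h, and is named after its value was seen. E2f2 was at 0.36 at 24 h and -0.29 at 12 h. For 24 h minus 12 h, E2f2 was at -0.42 in KO and -1.08 in WT, and E2f3 at 0.11 in KO and -0.52 in WT. Over time in WT, 1 of the 18 genes, E2f2, was lower by 1.5-fold, against 4.01% of all genes. Among 22 genes listed as brakes of the cycle, 2 were lower in KO by 1.5-fold at 24 h and 0 at 12 h. Of all genes, 3.51% were lower by that size at 24 h and 1.4% at 12 h. Cdkn1a, the CDK inhibitor p21, was at 8.50 in KO and 9.10 in WT at 24 h, and 8.69 in KO and 8.55 in WT at 12 h. Btg2 was at -0.65 at 24 h and -0.23 at 12 h. Of 6 genes of the CSF1 axis past the filter, Csf1 itself was lower in KO by 0.96 at 24 h and by 0.74 at 12 h, and the other 5 were within 1.5-fold.

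A limma fit of genotype and time together, over all 13308 genes and all 4 arrays, was the single test across genes. Its 1 residual degree of freedom comes from genotype effects that differ by time, so the p-values carry no replicate error. For genotype, the count of adjusted p-values under 0.05 was 0 among the 35 and 0 among all genes, and 1 of the 35 (2.86%) had an unadjusted p under 0.05, against 868 genes (6.52%) overall. That gene was Prim1, with a limma coefficient of -0.32 ± 0.11 (SE), an unadjusted p of 0.0438 and an adjusted p of 0.760. The count was 0 with no level filter and 4 with a filter at the 60th percentile, and with a trend in the prior the lowest p of the 35 was that of Mcm3. For Prim1, KO lay below WT in both pairs of arrays. For time, the same count was 0 among all genes, and 3 of the 35 (8.57%) had an unadjusted p under 0.05, against 1759 genes (13.2%) overall. Tk1 was higher at 24 h with a limma coefficient of 0.50 ± 0.12 (SE) and an adjusted p of 0.227, Gins3 with 0.42 ± 0.14 and an adjusted p of 0.326. Cdt1 was lower with -0.37 ± 0.13 and an adjusted p of 0.368. In the same limma fit 21 of the 25 mitosis genes had an unadjusted p under 0.05 for time and 0 an adjusted one.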

How the data were processed

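Transcript levels came from 4 Affymetrix whole-transcript arrays, 1 per group of genotype and incubation time, labelled with biotin. Per the submitters' processing notes, the authors made the deposited log2 values with RMA, which corrects background, quantile-normalizes the arrays and summarises each probe set. RMA would hide a shift shared by all transcripts. The log2 scale was inferred from the range of the values, whose array medians were 2.70 to 2.73.

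Groups were taken from the sample titles. Of 41345 probe sets, 23521 had 1 gene symbol in the platform annotation, 1814 several and 16010 none listed, and only the first kind was used. The probe set with the highest mean over the arrays stood for a gene. Genes at or above the 40th percentile of mean level, 13308 of 22180, entered all comparisons. Differences were taken as log2 KO minus WT, and 24 h minus 12 h, and called past 1.5-fold. Pairs of comparisons that use the same array share its error. limma 3.58.1 in R 4.3.3 was fitted with lmFit and eBayes to genotype plus time, with Benjamini-Hochberg adjustment over all genes kept. The fold rule and the limma fit were also run on simulated data with known genotype differences. That run checks the code and not the values reported here. Promoters and gene names came from RefSeq, build GRCm38.p6, to which 21994 genes matched.

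The members, the other lists and the rules were chosen with earlier results of these data known. The other lists were replication, nucleotide, chromatin, S phase entry, brakes of the cycle, CSF1 axis, mitosis and cell type markers. The markers were those of macrophage, stromal, neutrophil precursor, lymphoid, stem and erythroid, and dendritic cells. Named genes were all members, Hilpda, and from each other list up to 4 genes past 1.5-fold the same way in 2 comparisons and up to 2 with the largest difference, of which those the results turn on are given. Rrm2b, E2f3, Donson, Mybl2, Gins4, Top2a, Ccna2, Mki67, Gmnn and the 3 macrophage markers were chosen as examples with their values known. Alternatives were other level filters, fold rules, scalings, probe set rules and a trend in the limma prior.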

Additional observations from a re-analysis of the deposited data

Results flagged for a closer look

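In 3 of the 35 genes a difference changed direction between 2 comparisons that share no array, with both values beyond the SD of the receptor genes. Gins2 was at 0.53 for KO minus WT at 24 h and at -0.55 at 12 h. Gins1 was at 0.40 at 24 h and at -0.36 at 12 h. Chaf1a was at 0.69 for 24 h minus 12 h in KO and at -0.39 in WT. Between the times such opposite pairs were found for Gins1 and Gins2, and for 2.88% of all 13308 genes. Between the genotypes they were found for Chaf1a alone of the 35, and for 2.79% of all genes. With 1 array per group none of these differences was tested.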

How the results depend on the processing

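No paired analysis was possible because each group had 1 array and the labels give no replicate numbers, so no replicate block could be fitted beside the terms for genotype and time. Between the genotypes, the number of the 35 genes past the fold rule was 5 at 24 h and 2 at 12 h with a rule of 1.3-fold. Over time it was 4 in KO (all higher at 24 h) and 7 in WT (2 higher and 5 lower) with 1.3-fold, and 0 in KO with 2-fold. In WT it was 1 after median centring, quantile normalization or loess, in place of 0, since Tk1 then passed 1.5-fold. With the rule of 1.3-fold, the share of the 35 genes past it was below the share of all genes in all 4 comparisons. The mitosis genes past the rule numbered 7 in KO and 2 in WT with 2-fold, and 16 in WT with 1.3-fold, in alternatives added after seeing the data. The other counts past the fold rule stayed within 1.5 times, and the medians of the 35 genes within 0.1, under the alternatives run. In the limma fits, the number of the 35 genes with an unadjusted p under 0.05 for genotype was 1, but 0 with no level filter and 4 with the filter at the 60th percentile. For time it was 3, but 5 with that filter and 6 with a trend in the prior. Of the 35 genes, 0 had an adjusted p under 0.05 in these fits. Over all genes, limma gave 0 calls for time, but 146 with a filter at the 60th percentile, 45 after median centring and 540 with a trend in the prior, of which 6, 1 and 12 were mitosis genes. For genotype it gave 0 in each of these. Of 1060 values of single genes under alternatives, 4 moved by more than the receptor SD, all with a second, dimmer probe set. There Rrm2 was no longer past 1.5-fold for genotype by time, at -0.28 in place of -0.69. The rest of these 4 values were not past 1.5-fold and changed sign. Fen1 over time in WT was at -0.19 in place of 0.22. Pole was at 0.17 in place of -0.16 between genotypes at 12 h, and at -0.07 in place of 0.30 over time in KO. Some shifts smaller than the receptor SD also changed a sign. Examples were Fen1 over time in KO on its second probe set, and Orc6 between genotypes at 24 h and Mcm3 over time in WT under other scalings. Orc1 did not pass the 60th percentile.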

Other observations

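Of 4 further cell cycle genes, chosen with their values known and all lower at 24 h in both genotypes, Top2a, the topoisomerase that untangles copied DNA, was at 7.03 at 24 h and 7.58 at 12 h in KO, and at 7.40 at 24 h and 7.54 at 12 h in WT. Ccna2, a cyclin of S phase and G2, was lower at 24 h by 0.64 in KO and by 0.48 in WT, and Mki67, a proliferation antigen already counted among the mitosis genes, by 1.06 and by 0.56. Gmnn, the inhibitor of CDT1, was at -0.10 in KO and -0.05 in WT. Apart from that of Mki67, the lists these genes came from went both ways over time. Of the 18 genes for S phase entry, with Ccna2, 14 were above 0 in KO and 11 in WT. Of the 38 other replication genes, with Top2a, 17 were above 0 in KO and 20 in WT. Of the 22 brakes, with Gmnn, 8 were above 0 in KO and 12 in WT. Beyond the 37 listed genes, 10 of 39 promoter windows (25.6%) of other replication genes held an E2F word and 6 (15.4%) the CHR element.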
